A study of Mus musculus with 10 samples.

Results

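The genes described here encode the DNA replication machinery: 42 named genes that load, start, run and supply the replication fork. They were chosen by name from lists of licensing, polymerase, clamp, nucleotide supply and chromatin genes, by a rule that uses no measured value, although the lists were drawn up with earlier results of these data known. All 42 names were found among the 35087 gene symbols in the deposited tables, and all 42 passed the filter on low counts that left 10945 genes for testing. Transcripts were measured by GEO-seq, a polyA RNA protocol for small captured areas, in granulosa cells cut by laser from mouse ovaries. The NAC group (4 libraries) came from wild-type female C57B6/J mice aged 3 weeks that were injected intraperitoneally with N-acetyl-L-cysteine, an antioxidant and cysteine donor, at 150 mg/kg for 3 consecutive days. The saline group (6 libraries) came from females of the same strain, genotype and age that received normal saline on the same schedule. Ovaries were taken on day 4 after the first injection, and all 10 libraries carry the same batch label. The labels do not tie libraries to animals, so captures may share an animal, and a p-value here reflects only how captures vary, which may be technical.

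Granulosa cells surround the oocyte and multiply as a follicle grows, passing through repeated S phases. Before S phase, the origin recognition complex (ORC) with CDC6 and CDT1 loads the ring-shaped MCM2 to MCM7 helicase onto DNA, and geminin blocks CDT1 so that no origin is licensed again in the same cycle. CDC45 and the GINS complex then turn the loaded ring into an active helicase, primase with polymerase alpha starts each strand, and polymerases epsilon and delta extend them with the PCNA clamp. Many of these genes are known targets of the E2F transcription factors, which act at the transition into S phase.

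The libraries differed in depth. The NAC libraries held 116461 to 1667181 estimated reads, against 1340324 to 2488408 in the saline libraries. In NAC 3, the shallowest, the 42 genes together had 625 reads and 19 of them had under 10; in the other libraries they had 1853 to 11763. NAC 2 and NAC 3 also stood apart in breadth, with reads for 84.8% and 85.1% of tested genes, against 97.7% to 99.5% in the other 8. The 12 granulosa markers examined were all detected in both groups, with a summed level of 4747 to 10745 CPM (reads scaled to a common library total) in NAC and 9943 to 38151 in saline. Most of this sum was Inha, with a mean of 6315 of 8853 CPM in NAC and 23337.5 of 27638 in saline. Saline 1 and 2 had sums of 9943 and 13547 CPM, and saline 3 to 6 had 32867 to 38151. Markers of other ovarian cells were present too. The 14 oocyte markers summed to 387 to 2088 CPM in NAC and 33.3 to 2316 in saline, the 13 theca and stroma markers to 88.6 to 2492 CPM in NAC and 122 to 1291 in saline, and the 6 endothelial markers to 48.3 to 186 CPM in NAC and 23.4 to 64.6 in saline. The 6 leukocyte markers summed to at most 45.1 CPM in NAC and 23.6 in saline, and Figla, an oocyte transcription factor gene, had 0 reads over the NAC libraries. By log2 fold, 10 of 12 granulosa markers were negative, 10 of 12 tested oocyte markers positive, 12 of 13 stroma markers positive and 3 of 4 tested endothelial markers positive, with 0 past the test in each list. Of the endothelial markers, Pecam1 (log2 fold 1.70) and Kdr (2.12, from 66 reads in all) had every NAC library above every saline library. Over all tested genes, 1.96% did. The negative endothelial marker was Egfl7 (-0.10). Of the granulosa markers, Hsd17b1 (log2 fold -1.68) had every NAC library below every saline library, where 3.43% of tested genes did. Beyond fits with marker scores as covariates, the part of this cell mixture in the values below was not tested.

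Promoter sequences are shown first because they are a feature that the choice of genes did not use. The RefSeq promoter table (GRCm38.p6, 250 bases before to 50 after each annotated start) held 34 of the 42 genes. An E2F-type word, searched as TTTCCCGC, TTTGGCGC or TTTCGCGC on both strands, was found for 14 of these 34 genes (41.2%), against 2.12% of the 27025 genes in the table. Words on opposite strands can overlap and were counted separately. CCAAT, the NF-Y type word, was found for 23 of the 34 genes (67.6%), against 41.1% of all genes. The members' promoters had a median GC content of 58.3%, against 52.7% for all promoters. All 34 genes passed the filter on low counts, while the 27025 were not limited to genes that did. How far base composition or expression sets these shares was not tested. The 250 bases before the start are printed below, 5′ to 3′ on the strand of the gene, with E2F-type words in capitals. Mcm5 and Rpa1 are shown because they had the lowest folds among the 42, Mcm2 as the next MCM subunit by p, Pola1 as the gene with the highest fold and Mcm6 as the promoter with the most words. All are from GRCm38.p6.
Mcm5 (chr8:75109259-75109508, plus strand): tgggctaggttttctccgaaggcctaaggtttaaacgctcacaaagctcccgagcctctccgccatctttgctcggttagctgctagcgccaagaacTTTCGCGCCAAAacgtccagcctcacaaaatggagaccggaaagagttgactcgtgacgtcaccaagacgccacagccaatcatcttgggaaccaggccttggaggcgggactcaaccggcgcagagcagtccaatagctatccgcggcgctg
Mcm6 (chr1:128359706-128359955, minus strand): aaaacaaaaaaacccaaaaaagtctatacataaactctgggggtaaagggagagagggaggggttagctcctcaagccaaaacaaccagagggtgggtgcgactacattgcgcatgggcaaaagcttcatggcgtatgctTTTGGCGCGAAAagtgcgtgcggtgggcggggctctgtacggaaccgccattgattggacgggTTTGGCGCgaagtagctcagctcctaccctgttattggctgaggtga
Pola1 (chrX:93632156-93632405, minus strand): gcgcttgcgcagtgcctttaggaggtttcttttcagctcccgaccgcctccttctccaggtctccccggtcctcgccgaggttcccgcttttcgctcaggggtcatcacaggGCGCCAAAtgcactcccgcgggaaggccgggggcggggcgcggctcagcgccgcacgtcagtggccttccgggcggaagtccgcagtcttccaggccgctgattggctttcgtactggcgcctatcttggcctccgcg
Mcm2 (chr6:88898781-88899030, minus strand): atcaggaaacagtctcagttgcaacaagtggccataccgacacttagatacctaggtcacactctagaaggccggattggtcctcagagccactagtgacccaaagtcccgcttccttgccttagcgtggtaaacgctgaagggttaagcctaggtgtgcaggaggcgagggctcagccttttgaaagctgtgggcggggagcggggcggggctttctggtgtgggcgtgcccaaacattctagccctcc
Rpa1 (chr11:75348384-75348633, minus strand): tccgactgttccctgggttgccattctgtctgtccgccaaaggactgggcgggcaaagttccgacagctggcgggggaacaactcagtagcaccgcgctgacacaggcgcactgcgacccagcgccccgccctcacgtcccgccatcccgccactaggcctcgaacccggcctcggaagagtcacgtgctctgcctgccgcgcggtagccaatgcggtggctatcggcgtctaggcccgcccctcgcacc
In Mcm5 and Mcm6, words on opposite strands overlap and read as a single run of capitals. No match in Mcm2 or Rpa1 says only that these letters are not in the window searched. The 14 genes with a word had a median log2 fold, NAC over saline, of -0.40, and 11 of them were negative; the 20 genes without one had a median of -0.20, and 11 were negative. Both sets were wide, from -1.55 to 1.14 with a word and from -1.29 to 0.53 without one (0.525 for Orc2).

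**Figure D1:**
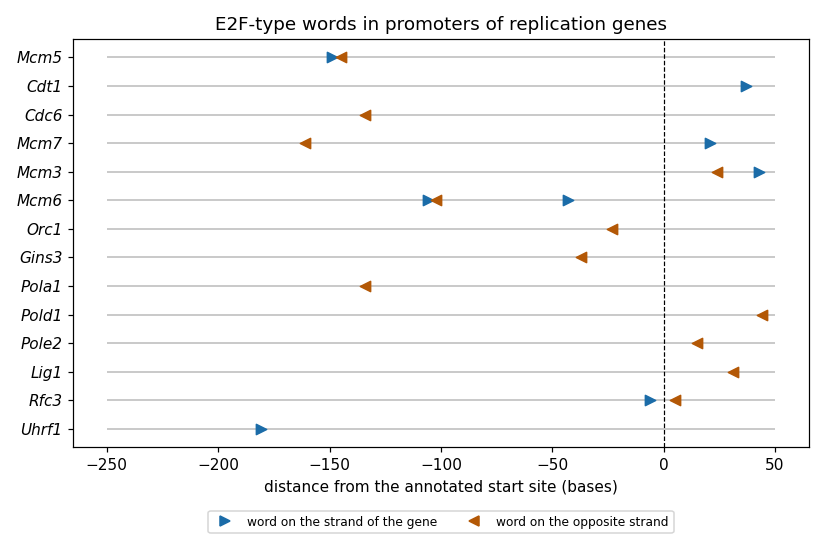
Positions of E2F-type words in the promoters of the 14 replication genes that hold at least 1. The x axis is the distance from the annotated start in bases, each grey line is the 300-base window searched, and arrowheads mark words on the strand of the gene or the opposite strand; Mcm6 has 3 words and most genes have 1.

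The comparison of NAC with saline asks which transcript levels differed in granulosa cells after the antioxidant. None of the 42 replication genes passed edgeR's quasi-likelihood test at an adjusted p under 0.05, the rule by which 0.0731% of all tested genes were called, 0.0183% as higher and 0.0548% as lower in NAC. Their adjusted p-values ran from 0.0857 to 0.962. At an unadjusted p under 0.05, 7 members were lower in NAC (16.7%, where 8.34% of all tested genes were) and 2 were higher (4.76%, where 7.82% were). The lower ones were Mcm5, Mcm2, Cdt1, Cdc6, Gins2, Pold2 and Rpa1, and the higher ones Gmnn and Pola1. In 4 members every NAC library lay below every saline library (9.52%, against 3.43% of tested genes), and in 0 members did every NAC library lie above (against 1.96%). Of the 42 log2 folds, 27 were negative, with a median of -0.21, beside 49.0% negative and a median of 0.018 over all tested genes. The summed level of the 42 genes was 3794 to 5034 CPM in NAC and 4168 to 5362 in saline, so the groups overlapped. Other tools called more genes in all. DESeq2 called 4 of the 42 (Mcm2, Mcm5, Rpa1 and Pola1) where it called 2.01% of 21234 genes with any reads. Limma-voom called 3 (Mcm5, Rpa1 and Pola1) where it called 4.35% of 10945. With no filter on low counts, edgeR called 2 (Mcm5 and Rpa1) where it called 1.06% of 21234. Thinned to the shallowest library, edgeR called 1 of 24 members tested (Mcm5) where it called 1.33% of 2779. The median log2 fold of those 24 was then -0.051, beside 0.037 over the 2779 genes, and 13 were negative (47.9% of the 2779). The 21234 include genes too low for the main filter, which all 42 members passed. Shares over 21234 are therefore not like those over 10945. In bulk captures, fewer replicating cells, less RNA per cell and a different mixture of cells cannot be told apart.

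**Figure D2:**
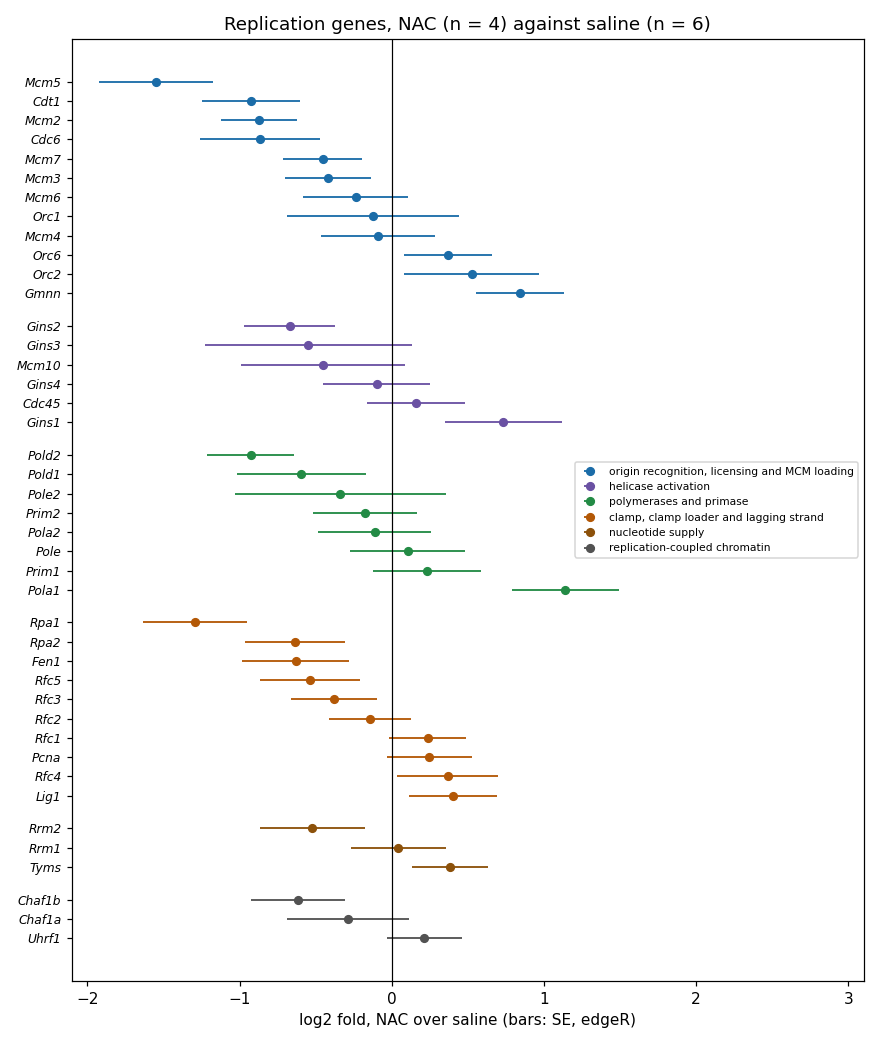
Log2 fold of each of the 42 genes, NAC over saline, ordered within 6 role groups; points are edgeR estimates and bars their standard errors. Licensing genes run from -1.55 (Mcm5) to 0.84 (Gmnn), and no gene passed the adjusted test.

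The count at an unadjusted p moved both ways with single libraries. With 1 library left out, 5 to 13 members were lower at an unadjusted p under 0.05. Members with all NAC libraries below all saline libraries numbered 4 to 7. That number, like its share of all genes, can only stay or rise when libraries are left out. Its range is therefore no check on stability. Without saline 1, 5 members were lower (8.58% of all genes then). Without NAC 2, 4 did not overlap (5.34% of all genes). Without NAC 3, 13 members were lower (8.14% of all genes) and 7 did not overlap (4.89% of all genes). With NAC 2 and NAC 3 both left out, 9 were lower at an unadjusted p (9.65% of all genes) and 8 did not overlap (9.43% of all genes). In all of these fits 0 members passed the adjusted test.

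Of the 12 origin licensing genes, 9 had negative values, with a median log2 fold of -0.33. Mcm5, a subunit of the MCM2 to MCM7 ring (GRCm38 chromosome 8, 75109569 to 75128439), had 73.6, 20.5, 96.7 and 103 CPM in NAC 1 to 4, against 151 to 276 CPM with a median of 214 in saline. Every NAC library was below every saline library, and NAC 2 was the lowest. Its means were 73.3 ± 37.4 CPM across NAC libraries (SD, n = 4), against 212 ± 50.2 for saline (SD, n = 6). The log2 fold was -1.55 (SE 0.38, edgeR adjusted p = 0.0857). Mcm5 passed under 4 of 25 alternatives, DESeq2, limma-voom with sample quality weights, no filter on low counts and thinning, with adjusted p-values from 0.00613 to 0.5925 over all of them.

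Mcm2, whose product sits beside MCM5 at the gate of the ring (chromosome 6, 88883474 to 88898780), had 131, 88.05, 137 and 107 CPM in NAC 1 to 4. In saline it had 175 to 260 CPM with a median of 205, so the groups did not overlap. The log2 fold was -0.88 (SE 0.25, edgeR adjusted p = 0.116). Mcm3 (chromosome 1, 20802968 to 20820312) had 191, 113, 266 and 142 CPM in NAC and 173 to 300 CPM with a median of 233 in saline. Here NAC 3 and NAC 1 lay inside the saline range. All 6 ring subunits had negative folds, with -0.45 for Mcm7, -0.42 for Mcm3, -0.24 for Mcm6 and -0.089 for Mcm4, and 0 of 6 passed the test. The signs of Mcm4 and Mcm6 turned under some alternatives. With GC and length offsets Mcm5, Mcm2, Mcm7, Mcm3, Mcm6 and Mcm4 had -1.38, -0.69, -0.12, -0.19, -0.40 and -0.34. Thinned to the shallowest library, they had -1.93, -0.45, -0.083, -0.14, -0.018 and 0.079 in the same order. NAC 3 was the library in which Mcm4 and Mcm6 were highest, at 218 and 379 CPM, where NAC 1 had 46.9 and 183 CPM.

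Per transcript length the ring subunits were not equal. In saline, deposited TPM, which scales reads by transcript length, averaged 203 ± 101 for Mcm3, 130 ± 27.0 for Mcm7, 93.8 ± 26.5 for Mcm6, 90.5 ± 31.2 for Mcm5, 67.1 ± 12.3 for Mcm2 and 32.0 ± 9.01 for Mcm4 (SD, n = 6 each). Mcm3 and Mcm7, Mcm6 and Mcm5, and Mcm5 and Mcm2 each differed by less than the larger of their SDs, while Mcm7 lay above Mcm6, and Mcm2 above Mcm4, by more than either SD. In NAC, Mcm5 and Mcm4 averaged 32.7 ± 18.2 and 32.0 ± 21.4 TPM (SD, n = 4 each), so the same order did not separate them.

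The regulators of loading pointed both ways. Cdt1, the loader (chromosome 8, 122568015 to 122573554), had 52.7, 45.05, 64.4 and 51.6 CPM in NAC 1 to 4, against 47.1 to 133 CPM with a median of 103 in saline. A single saline library, replicate 6, fell within the NAC range. Gmnn, which encodes geminin, the inhibitor of CDT1 (chromosome 13, 24751845 to 24761923), had 110, 197, 137 and 130 CPM in NAC 1 to 4. In saline it had 60.02 to 124 CPM with a median of 69.8, so that NAC 1 overlapped the highest saline library. Log2 folds were -0.92 for Cdt1 (SE 0.32, edgeR adjusted p = 0.186) and 0.84 for Gmnn (SE 0.29, edgeR adjusted p = 0.184). The ratio of Gmnn to Cdt1 reads, chosen after these values were seen and so given without a test, was 2.10, 4.36, 2.13 and 2.52 in NAC 1 to 4 and 0.588 to 1.27 in saline. Those groups of ratios did not overlap, but the genes had folds of opposite sign, and the share of all gene pairs that separate was not computed. The other ratio formed, Rpa1 to Rpa2, overlapped, at 0.181 to 1.31 in NAC and 0.416 to 0.925 in saline. Its longest transcript gives Cdt1 a GC content of 57.75%, and with offsets fitted on GC and length its log2 fold was -0.28, while that of Gmnn was 0.80.

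Cdc6, an ATPase that joins ORC to load the ring, had 13.7, 28.7, 48.3 and 25.8 CPM in NAC and 33.2 to 57.5 CPM with a median of 47.55 in saline, and its log2 fold was -0.86 (SE 0.39). Of the NAC libraries, NAC 3 alone lay inside the saline range. Of the ORC genes, Orc2 and Orc6 had log2 folds of 0.53 and 0.37, and Orc1 of -0.12.

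**Figure D3:**
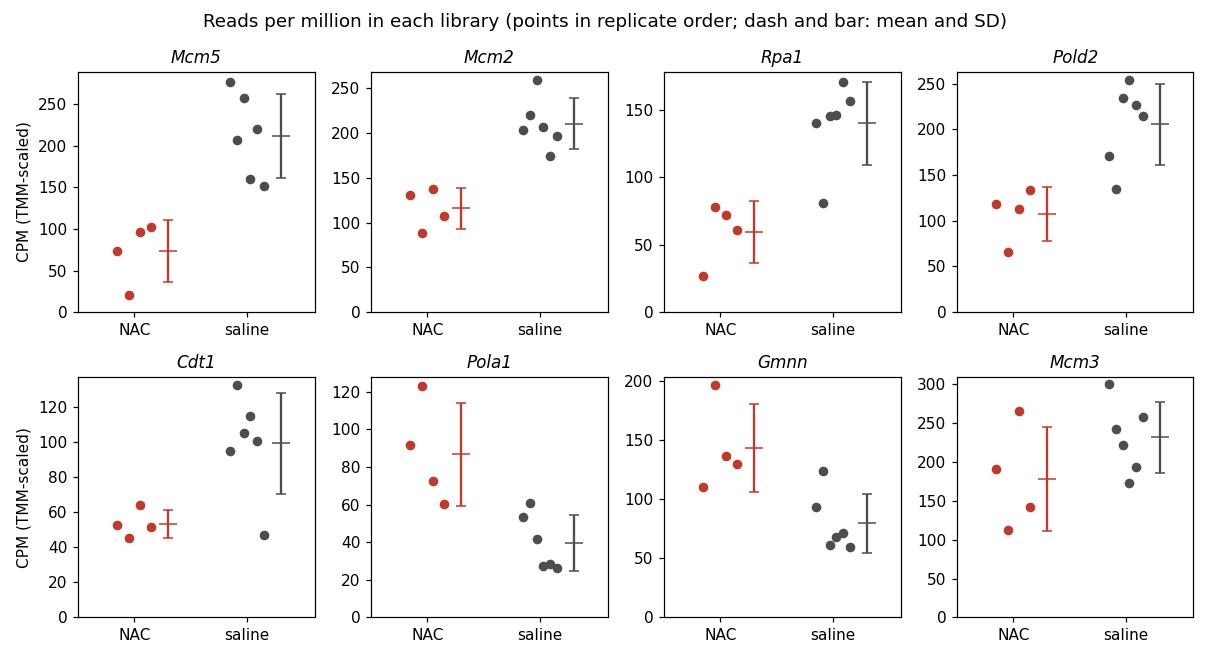
CPM in each library (y axis, TMM-scaled) for 8 genes, NAC left and saline right; points are libraries, dashes and bars mean and SD. The NAC points lie below every saline point in Mcm5, Mcm2, Rpa1 and Pold2, while Pola1 and Gmnn lie mostly above and Mcm3 and Cdt1 overlap.

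Among the 6 helicase activation genes, 4 were negative and 0 passed. Gins2, a subunit of the GINS ring that holds CDC45 on the helicase (chromosome 8, 120578633 to 120589304), had 58.4, 38.9, 48.3 and 61.8 CPM in NAC 1 to 4, against 58.4 to 108 CPM with a median of 80.7 in saline. NAC 4 was inside the saline range, NAC 1 was level with its low end and the others were below. Its log2 fold was -0.67 (SE 0.30, edgeR adjusted p = 0.273). On log2(TPM + 1) the fold was -1.42, and with GC and length offsets it was -0.43. Gins1, another subunit of the same complex (chromosome 2, 150905400 to 150931280), had 73.6, 81.9, 24.2 and 46.2 CPM in NAC and 23.1 to 58.9 CPM with a median of 30.6 in saline. Here NAC 1 and NAC 2 were above all saline libraries, and the log2 fold was 0.73 (SE 0.38, edgeR adjusted p = 0.354). Gins3 and Gins4 had log2 folds of -0.55 and -0.097, so the 4 GINS subunits did not share a sign. Cdc45 had 0.16 and Mcm10, a factor that helps start unwinding, -0.45. Mcm10 ranged from 2.05 CPM in NAC 2 to 70.7 CPM in NAC 1, wider than its saline range of 32.2 to 61.8 CPM. Its log2 fold was -1.43 without NAC 1 and -0.065 without NAC 2.

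The polymerase and primase genes held the highest fold. Pola1, the catalytic subunit of polymerase alpha (chromosome X, 93304767 to 93632155), had 91.6, 123, 72.5 and 60.2 CPM in NAC 1 to 4, against 26.2 to 60.8 CPM with a median of 34.8 in saline. NAC 4 overlapped the highest saline library and the other 3 were above it. The means were 86.8 ± 27.3 CPM across NAC libraries (SD, n = 4), against 39.55 ± 14.8 for saline (SD, n = 6). The log2 fold was 1.14 (SE 0.35, edgeR adjusted p = 0.1435). It passed with DESeq2 (adjusted p = 0.0474) and with limma-voom (adjusted p = 0.04385), and its adjusted p was 0.04385 to 0.673 over the alternatives. With GC and length offsets the log2 fold was 0.61; its longest transcript has 41.5% GC. Its partner Pola2 had a log2 fold of -0.11, and the primase genes Prim1 and Prim2 had 0.23 and -0.18.

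Pold2, the accessory subunit of polymerase delta (chromosome 11, 5872180 to 5878292), had 118, 65.5, 113 and 134 CPM in NAC 1 to 4 and 135 to 253 CPM with a median of 220 in saline. The groups did not overlap, though NAC 4 and the lowest saline library, replicate 2, were about equal. In CPM its log2 fold was -0.93 (SE 0.29, edgeR adjusted p = 0.142). In deposited TPM the groups were level, at 199 ± 61.1 TPM across NAC libraries (SD, n = 4), against 193.5 ± 31.7 TPM for saline (SD, n = 6), and the log2 fold on log2(TPM + 1) was 0.0055. With GC and length offsets its log2 fold of counts was -0.26. TPM uses the transcript lengths deposited for each library and CPM does not. Pold1, the catalytic subunit, had 202, 22.5, 64.4 and 117 CPM in NAC and 99.6 to 217 CPM in saline, with a log2 fold of -0.59. Without NAC 1 that fold was -1.22, without NAC 2 it was -0.25, and on log2(TPM + 1) it was -0.075. Pole and Pole2, subunits of polymerase epsilon, had 0.10 and -0.34; Pole2 had 0 reads in NAC 2.

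In the clamp and lagging strand group, 6 of 10 genes were negative and 0 passed. Rpa1, the large subunit of RPA, which coats single-stranded DNA (chromosome 11, 75298166 to 75348324), had 26.7, 77.8, 72.5 and 61.2 CPM in NAC 1 to 4, against 81.0 to 171 CPM with a median of 146 in saline. No NAC library reached the lowest saline library, replicate 2, and the other 5 saline libraries were above 140 CPM. The gap to saline replicate 2 was small for NAC 2 and for NAC 3, the shallowest library. Means were 59.6 ± 23.0 CPM across NAC libraries (SD, n = 4), against 140 ± 30.9 for saline (SD, n = 6). The log2 fold was -1.29 (SE 0.34, edgeR adjusted p = 0.0975). It was called with DESeq2, limma-voom and no filter on low counts, with adjusted p-values of 0.0185 to 0.668 over the alternatives, and with GC and length offsets the log2 fold was -1.44. Rpa2, the middle subunit (chromosome 4, 132768332 to 132778752), had 147, 59.4, 218 and 127 CPM in NAC and 152 to 311 CPM with a median of 197 in saline. NAC 3 was inside the saline range and the other 3 below it, for a log2 fold of -0.64 (SE 0.33).

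Rfc2, a clamp loader subunit and the member of this group with the highest saline TPM (chromosome 5, 134581366 to 134601805), had 98.1, 158, 193 and 184 CPM in NAC and 134 to 207 CPM with a median of 180 in saline. Only NAC 1 was outside the saline range. The loader genes Rfc1 and Rfc4 had log2 folds of 0.24 and 0.37, and Rfc2, Rfc3 and Rfc5 of -0.14, -0.38 and -0.54. In deposited TPM, Rfc1 averaged 118 ± 68.3 across NAC libraries (SD, n = 4), against 43.9 ± 14.5 for saline (SD, n = 6). Its log2 fold on log2(TPM + 1) was 1.30. Pcna, the sliding clamp, had 193 to 334 CPM in NAC and 148 to 334 CPM in saline, a log2 fold of 0.25 (SE 0.28). Of the genes that process and seal Okazaki fragments, the flap nuclease gene Fen1 had -0.63 and the ligase gene Lig1 0.40.

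Nucleotide supply and chromatin genes overlapped between the groups. Tyms, thymidylate synthase (chromosome 5, 30058202 to 30073617), had 237, 203, 129 and 198 CPM in NAC 1 to 4 and 125 to 190 CPM with a median of 145 in saline. NAC 3 was inside the saline range and the others above it, and the log2 fold was 0.38 (SE 0.25, edgeR adjusted p = 0.458). Rrm2, the small subunit of ribonucleotide reductase (chromosome 12, 24708241 to 24714146), had 108, 51.2, 250 and 116 CPM in NAC and 134 to 200 CPM with a median of 181 in saline. NAC 3 was above and the other NAC libraries below all saline libraries, a log2 fold of -0.52 (SE 0.34). Rrm1, the large subunit, had a log2 fold of 0.042. Chaf1b, a subunit of the histone chaperone CAF-1 (chromosome 16, 93883901 to 93906115), had 47.6, 41.0, 32.2 and 67.7 CPM in NAC and 60.3 to 103 CPM with a median of 73.98 in saline. NAC 4 alone reached the saline range, and the log2 fold was -0.61 (SE 0.31). Its partner Chaf1a had -0.29. Uhrf1, which directs DNA methylation to new strands (chromosome 17, 56303321 to 56323486), had 164, 141, 137 and 191 CPM in NAC and 116 to 190 CPM with a median of 130 in saline, a log2 fold of 0.21 (SE 0.25).

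**Figure D4:**
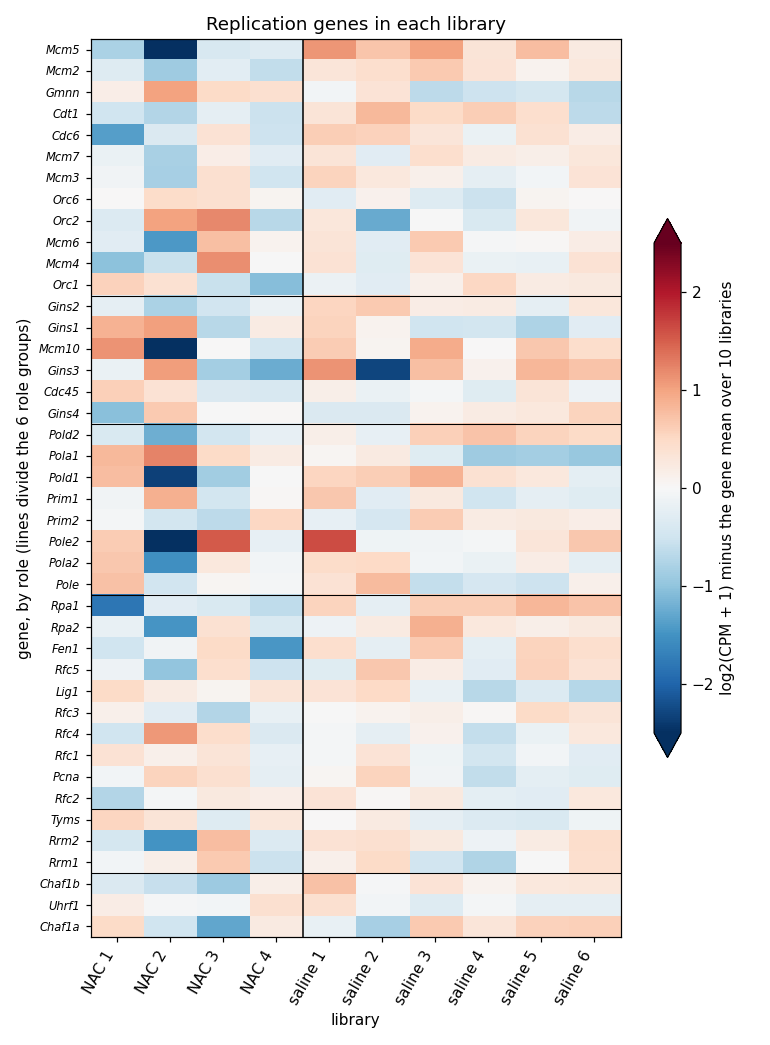
Log2(CPM + 1) of each gene minus its mean over the 10 libraries, NAC columns left of the line; rows are grouped by role, and colours saturate at the ends of the scale. NAC 2 holds deep blues for Mcm5, Mcm10, Pold1 and Pole2, saline 2 for Gins3, and no role group is blue throughout the NAC columns.

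Spread differed between the groups. The coefficient of variation of a member had a median of 38.4% among NAC and 23.3% among saline libraries, and was higher in NAC for 32 of 42 genes. Over all tested genes the medians were 60.9% in NAC and 33.2% in saline. Among members it was highest in NAC for Pole2 (93.5%) and Mcm10 (89.7%) and lowest for Lig1 (12.1%).

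Folds varied with GC content. Median log2 folds of all genes, in 4 bins of transcript GC content from low to high with near-equal numbers of genes, were 0.44, 0.15, -0.18 and -0.41. The 7, 17, 15 and 3 members in those bins had medians of 0.23, -0.12, -0.42 and -0.92. The median GC content was 49.0% for the 42 genes and 49.4% for all tested genes. With centred offsets for GC content and length, 31 of 42 members were negative and the median was -0.22, beside -0.058 for all genes; 4 members were then lower at an unadjusted p under 0.05 (7.88% of all genes) and 3 were higher (5.24% of all genes).

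**Figure D5:**
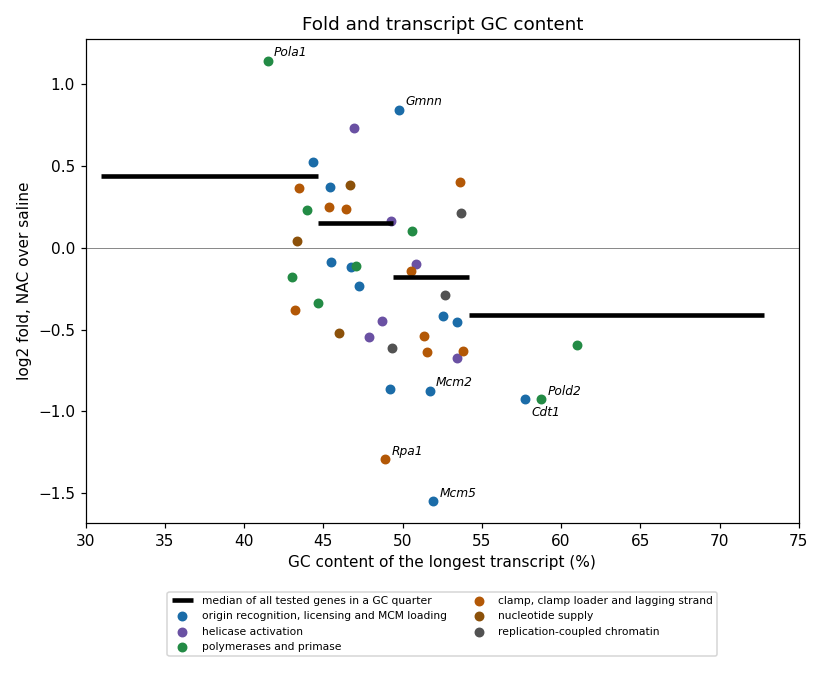
Log2 fold of each gene against the GC content of its longest transcript; black lines are medians of all tested genes in 4 bins of GC content (0.44, 0.15, -0.18 and -0.41). Pola1 lies at the low GC end and Cdt1 and Pold2 at the high end, while Mcm5, Mcm2, Rpa1 and Gmnn lie in the middle.

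Other genes of the pathway were described from 5 further lists with 71 tested genes. Of these, 0 passed the adjusted test, 5 were lower (7.04%, where 8.34% of all tested genes were) and 4 higher (5.63%, where 7.82% were) at an unadjusted p under 0.05, and the median log2 fold was 0.033. The 10 remaining subunits of the same complexes had 8 positive values and a median of 0.59; their median GC content was 41.4%. Rpa3, of the small RPA subunit, averaged 72.2 ± 48.8 CPM across NAC libraries (SD, n = 4), against 39.6 ± 8.05 CPM for saline (SD, n = 6), and its log2 fold was 0.84. Orc4 and Orc5, of the origin recognition complex, had log2 folds of 1.07 and 0.69. The 23 origin firing and fork factors had 8 negative values and a median of 0.16. Chtf8 encodes part of an alternative clamp loader. It averaged 39.35 ± 12.9 CPM across NAC libraries (SD, n = 4), against 78.1 ± 21.5 CPM for saline (SD, n = 6). Its log2 fold was -0.93, and every NAC library lay below every saline library. Such a separation was found for 1 of the 71 further genes (1.41%), a smaller share than the 3.43% of all tested genes. Mcmbp, which binds MCM proteins, had a log2 fold of 0.59 and Rnaseh2c, an RNase H2 subunit, of -0.58.

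In the list of other nucleotide supply genes, 9 of 12 were negative with a median of -0.25. Umps, a pyrimidine synthesis enzyme gene, averaged 81.2 ± 29.4 CPM across NAC libraries (SD, n = 4), against 170.0 ± 52.25 CPM for saline (SD, n = 6), and the log2 fold was -1.03 (edgeR adjusted p = 0.152). Shmt1 and Shmt2, which feed one-carbon units to thymidylate, had -0.81 and -0.72. The 8 histone and DNA methylation genes were divided, with Hat1, a histone acetyltransferase gene, at 0.85, Cdca7l at -1.08 and the remodeller gene Hells at -0.35. Of 18 genes of G1/S control, 10 were negative with a median of -0.071. Rb1, the retinoblastoma protein gene that restrains E2F, averaged 67.2 ± 37.8 CPM across NAC libraries (SD, n = 4), against 24.6 ± 10.3 CPM for saline (SD, n = 6), and the log2 fold was 1.40 (SE 0.44, edgeR adjusted p = 0.146). E2f5, a mostly repressive E2F gene, had 1.30, and Cdk2, the kinase of S phase entry, -0.72; none of the 3 passed.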

How the data were processed

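The authors deposited 1 table of genes per library; Salmon and GRCm38 are named in the submitters' processing notes, and for version, index and strand setting the entry is: not given in the sources used here. Every table holds estimated counts and TPM per gene, per the file headers. Named pseudogene rows of members, Pcna-ps1, Pcna-ps2 and Tyms-ps, held 0, 7 and 1 reads in all. Rows without a symbol (1548, at most 0.638% of a library's reads) entered neither the library sizes nor the tests.

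Estimated counts as deposited were rounded to whole numbers and compared by the edgeR 4.0.16 quasi-likelihood test (R 4.3.3; robust, TMM, default low-count filter), with Benjamini-Hochberg adjustment over 10945 genes. CPM use the TMM-scaled totals of tested genes. SE is the size of the log2 fold divided by the root of the F statistic. Counting error of amplified reads without molecular identifiers is not error between animals.

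The members and lists were chosen with earlier results of these data known, so no list was tested. Values per library are given for the 2 members with the smallest p and the one with the highest saline TPM in each of 6 role groups, and for a few others (Cdt1, Gmnn, Cdc6, Pold1) chosen after their values were seen; from each further list the 3 with the smallest p are named. Alternatives covered factors (RLE or none), DESeq2 1.42.0, limma 3.58.1 (voom, log2(TPM + 1), log2(TPM + 0.1)), filters (none, or 10 CPM in 4 libraries), estimation, the replicate block, marker scores, GC and length offsets (mgcv 1.9.3), thinning and left-out libraries. Positions, GC content and lengths are from GENCODE M21 (GRCm38), with values for 10851 of the tested genes and all 42 members.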

Additional observations from a re-analysis of the deposited data

Results flagged for a closer look

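In 4 of the 84 sets of member values by group, 1 library stood far from the others; chance gives about 1 in 20. Pole2 had 60.2 CPM in saline 1, against 17.4 to 30.7 in the other saline libraries. Rpa1 had 81.0 CPM in saline 2, against 140.5 to 171 in the others, and its log2 fold without that library was -1.45. Rpa2 had 311 CPM in saline 3 (310.5), against 152 to 201 in the others. Uhrf1 had 190 CPM in saline 1 (190.4), against 116 to 139 in the others.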

How the results depend on the processing

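Of the 42 genes, 24 kept their sign under every alternative that tested them (Mcm5, Mcm2, Rpa1 and Gmnn under all 25; Cdt1, Cdc6, Gins2 and Pola1 under 24, since thinning tested 24 of the 42 genes and not these), and 18 turned under at least 1. None of the 42 passed in edgeR's main test, where 2 were higher and 7 lower at an unadjusted p under 0.05. DESeq2 called 4 (Mcm2, Mcm5, Pola1, Rpa1) among 427 genes (2.01% of 21234). Limma-voom with quality weights called 3 (Mcm5, Pola1, Rpa1) among 476 (4.35% of 10945). No filter on low counts gave 2 (Mcm5, Rpa1) among 226 (1.06% of 21234). Thinning to the shallowest library gave 1 (Mcm5) among 37 (1.33% of 2779). The count over all genes, 8, was 15 with GC and length offsets, 2 without NAC 2 and NAC 3, 1 with the oocyte score and 1 to 58 with each library left out; 0 members passed in these fits. The members' median was -0.011 with library size alone, which moved the median of all genes to 0.19, and -0.54 without NAC 1 to -0.13 without NAC 2. Thinned, the 24 members tested had a median of -0.051, beside 0.037 for all genes. Of the 24, 2 were lower at an unadjusted p under 0.05 (9.64% of all genes) and 2 higher (10.8%). On log2(TPM + 0.1) the members' median was -0.19, beside -0.14 for all genes, and 25 of 42 were negative (55.8% of all genes). With the stroma score as a covariate Mcm5, Mcm2 and Rpa1 had -1.385, -0.80 and -1.25; with the oocyte score -1.62, -0.91 and -1.18.

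Shared replicate numbers are not stated to pair animals. Deviations of same-numbered libraries correlated at -0.008 to 0.19, and 2 of 4 NAC libraries correlated best with their own number. With the replicate block 1 gene passed, 0 members did, and the log2 fold of Gins4 was 0.015.

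The values that turned were these. With GC and length offsets Rfc1 had -0.017, Pole -0.033, Prim1 -0.050, Rfc4 -0.088, Rrm1 -0.44 and Gins4 0.027. With library size alone Rfc2 had 0.019, Prim2 0.029, Orc1 0.050, Pola2 0.060, Gins4 0.074 and Mcm4 0.091. With limma-voom Rrm1 had -0.024, Cdc45 -0.033, Rfc4 -0.11, Orc2 -0.18 and Pola2 0.14. Pold2 had 0.0055 in log2(TPM + 1) and 0.0054 in log2(TPM + 0.1), and Rfc2 had 0.077 in both. Thinned, Pole had -0.17, Gins4 0.061, Mcm4 0.079 and Rfc2 0.32. Without NAC 2 and NAC 3, Prim1 had -0.048, Pcna -0.12, Rrm1 -0.36, Rfc4 -0.38, Orc2 -0.45, Chaf1a 0.038, Prim2 0.076 and Pola2 0.16. With each library left out, ranges that crossed 0 were -0.14 to 0.25 for Cdc45, -0.44 to 0.10 for Gins4, -0.62 to 0.10 for Mcm4, -0.61 to 0.0087 for Mcm6, -0.55 to 0.11 for Orc1, -0.54 to 0.17 for Pola2, -0.28 to 0.28 for Pole, -0.81 to 0.055 for Pole2, -0.10 to 0.42 for Prim1, -0.12 to 0.49 for Rfc4 and -0.23 to 0.12 for Rrm1. The cause of these turns was not tested. Depth limits NAC 3 most, where 19 of 42 genes had under 10 reads.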
